A study of Mus musculus with 24 samples.

Results

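The genes described are the replication-dependent histone genes of the mouse, taken as the protein-coding genes of GENCODE M21 whose symbols begin with Hist1h, Hist2h, Hist3h or Hist4h. Of the 55401 genes in the count table, 67 met this rule, and these code for the linker histone H1 (6 genes) and the core histones H2A (18), H2B (18), H3 (12) and H4 (13). On GRCm38, 54 of them lie on chromosome 13, 10 on chromosome 3, 2 on chromosome 11 and 1 on chromosome 6. The 21 genes with a mean of at least 0.5 CPM (counts scaled to library size, with edgeR's TMM factors) over all 24 tumors are described one by one, and the 46 genes below that level are given by counts and ranges. RNA was sequenced from tumors of TC2Ras cells, a mouse prostate adenocarcinoma line, grown in male C57/BL6 mice of 8 to 10 weeks.

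Subcutaneous (SC) tumors came from 300000 TC2Ras cells per flank and were treated with empty vector (SC control, n = 2) or IL-27 vector (SC IL-27, n = 2). Intratibial tumors came from 100000 TC2Ras-Luc cells, which carry luciferase, placed in each tibia, and were taken on day 14 (D14, n = 3 per group) or at the end of the study (EOS, n = 2 per group). In both sets the groups were control (empty vector and the PvP vehicle), IL-27 (IL-27 vector and PvP), cabo (empty vector and cabozantinib, a tyrosine kinase inhibitor) and IL-27+cabo (IL-27 vector and cabozantinib). IL-27 is a cytokine of the IL-12 family, and its gene was delivered as a plasmid into muscle with ultrasound. The hosts kept their own immune cells, vessels, muscle and, in bone, marrow, so each library mixes tumor and host RNA. Intratibial replicates are named by their mouse numbers. The labels do not say whether the SC tumors of a group came from separate mice, and p-values there measure only the spread between those samples.

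Replication-dependent histone genes supply the histone proteins that package newly copied DNA, and they are transcribed mainly in S phase. Their mRNAs are unusual in that most end not in a poly(A) tail but in a short stem-loop, which SLBP binds, while the U7 snRNP pairs with an element downstream of it and the cut falls between them. Some of these genes are also known to yield longer, polyadenylated mRNAs, in particular in cells that have stopped dividing. The libraries here were made by poly(A) selection, so the counts describe whichever histone transcripts were retained by oligo(dT), not the whole histone mRNA pool of a cell.

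The stem-loop is shown first because it is the feature on which poly(A) selection bears. GENCODE M21 transcripts were searched after the stop codon for 16 bases that begin with GG and form a stem of 6 pairs around a loop of 4 bases. It was found in 46 of the 67 genes, each time ending within 100 bases of the stop codon, against 71 of 21799 other protein-coding genes (0.326%) in the same 100 bases. It was found in 17 of the 21 described genes and in 29 of the 46 others, 13 of the latter having no annotated bases after the stop codon. The stems are in capitals and the loops in lower case, 5′ to 3′ on the coding strand of GRCm38.
Hist1h1c, chr13:23739512-23739527, plus strand: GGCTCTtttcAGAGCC
Hist1h3g, chr13:23535889-23535904, plus strand: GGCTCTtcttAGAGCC
Hist1h4i, chr13:22040966-22040981, minus strand: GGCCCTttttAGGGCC
Hist1h4h, chr13:23531458-23531473, plus strand: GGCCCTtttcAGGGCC
The spelling of Hist1h1c was the most frequent of the 8 found, in 26 genes, 13 of them described. The 4 described genes without a match, Hist1h2bc, Hist2h2be, Hist1h2br and Hist1h2bq, all code for H2B, and no match says only that these letters are not in the annotated ends.

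The annotated ends of the described genes were long. Their longest 3′ UTRs ran from 80 to 4931 bases with a median of 823, against a median of 74.0 for the other 46 genes, and 13 of 21 against 4 of 46 exceeded 500 bases. In Hist1h1c 840 annotated bases followed the stem-loop, in Hist3h2a 1643 and in Hist1h1d 4884, while in Hist1h4h 46 did. The signal AATAAA stood in the last 50 bases of an annotated transcript in 7 of the 21 described genes and in 7 of the other 46, against 65.3% of other protein-coding genes. CPM is not divided by length, so a longer gene reaches the threshold of 0.5 CPM more easily, and the lengths of the described genes are given with no test for that reason.

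**Figure D1:**
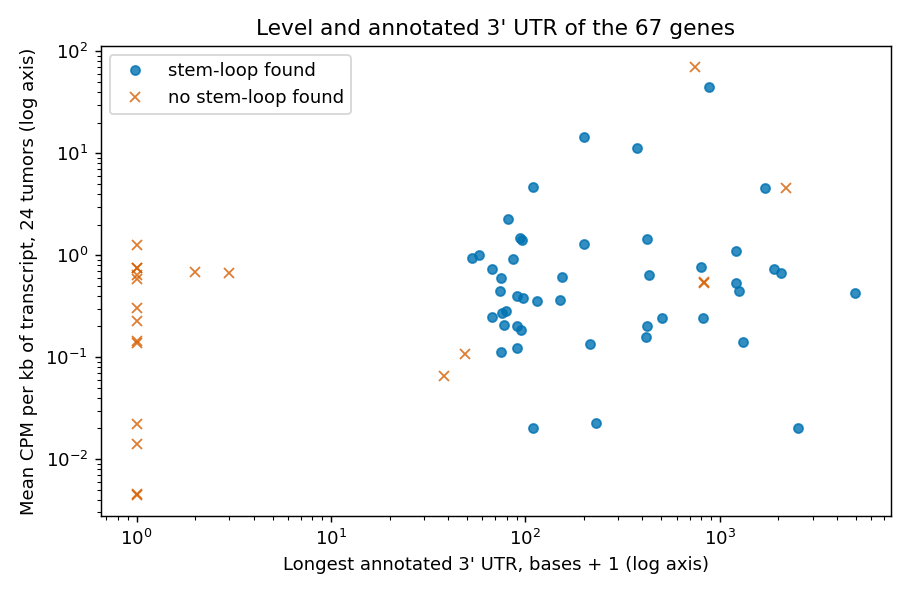
Mean CPM per kilobase of transcript over 24 tumors (log axis) against the longest annotated 3′ UTR plus 1 base (log axis), 1 point per gene for all 67 genes. Circles are genes with a stem-loop match and crosses genes without one, and the crosses at the left are the 13 genes with no annotated 3′ UTR, while the cross at the top is Hist1h2bc with 69.6 CPM per kilobase.

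Promoters are shown for 3 of the 4 genes that were higher at EOS than on day 14 in the cabo arm, as the 150 bases before the RefSeq start on GRCm38.p6, with the CCAAT box, the TATA box (spelled TATAAA) and the octamer (spelled ATTTGCAT) in capitals, searched on both strands.
Hist1h1c, chr13:23738657-23738806, plus strand: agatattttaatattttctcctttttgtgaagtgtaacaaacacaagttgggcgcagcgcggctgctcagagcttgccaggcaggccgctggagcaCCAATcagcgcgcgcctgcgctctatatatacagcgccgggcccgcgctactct
Hist1h1d, chr13:23554882-23555031, plus strand: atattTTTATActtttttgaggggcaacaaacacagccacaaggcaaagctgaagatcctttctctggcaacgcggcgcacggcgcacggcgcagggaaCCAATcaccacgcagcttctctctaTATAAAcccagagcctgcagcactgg
Hist1h2bg, chr13:23571250-23571399, plus strand: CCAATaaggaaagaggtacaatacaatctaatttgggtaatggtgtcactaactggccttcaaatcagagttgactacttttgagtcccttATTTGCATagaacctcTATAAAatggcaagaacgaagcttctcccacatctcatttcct
RefSeq promoters matched 62 of the 67 genes, and Hist1h2bc had no entry. CCAAT was in 51 of the 62, against 24.5% of all 32817 RefSeq promoter windows of this length, TATAAA in 24 against 7.58%, and the octamer in 11 against 0.999%. All 11 genes with the octamer code for H2B (6) or H2A (5). These matches describe letters only.

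Copies of these genes are close to identical, which limits what a count can be assigned to. Of all 100-base windows in a gene's transcripts, a median of 70.2% occurred in no other annotated gene for the described genes and 58.5% for the others. Hist2h2be was unique throughout, Hist1h1d to 99.2%, Hist1h1c to 94.9%, Hist1h2bc to 74.7% and Hist1h2bg to 55.1%. Under 50% of the windows were unique in 6 described genes, among them Hist2h2aa1 (11.7%), Hist1h4n (19.3%), Hist1h2br (13.6%) and Hist1h2bq (5.16%). Hist2h3c1 had no unique window, since its whole length lies inside the annotated gene Gm20634 on the same strand, which also covers 90.3% of Hist2h2aa1. How shared reads were assigned is not given in the sources used here, so the levels of these genes are uncertain. In all, 7 of the 21 described genes shared exon bases with another annotated gene.

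Library totals ran from 63729005 to 83782258 counts, so that a limit of 3 counts is 0.0363 to 0.0574 CPM (counting error only). The 67 genes together held 0.00457% to 0.0497% of all counts. Each of the 46 genes below the threshold had some count, and their highest value in any tumor was 1.87 CPM, in Hist1h2ap. Just above the threshold were Hist1h4h (0.688) and Hist1h3g (0.749), and just below it Hist1h4j (0.493) and Hist1h2ap (0.484). Without mouse 20, which stands apart as described below, Hist1h4h had a mean of 0.378 CPM and would not have been described. Of markers of the labelled cells, the epithelial keratin gene Krt8 was at 14.4 to 262 CPM in the intratibial tumors, while the prostate gene Pbsn had no count in any of them.

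By class, H2B took 49.6% of the counts on these genes and H1 34.0%, followed by H2A (7.87%), H4 (5.51%) and H3 (3.03%). Most of this came from a pair of genes, Hist1h2bc and Hist1h1c, which held 59.7% or more of the summed CPM in every intratibial tumor (median 69.8%) and at most 49.4% in the SC tumors. The summed CPM of all 67 genes was 45.0 to 68.5 in the 4 SC tumors and 160 to 526 in the 20 intratibial tumors (median 204). These shares are those of poly(A)-selected libraries.

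**Figure D2:**
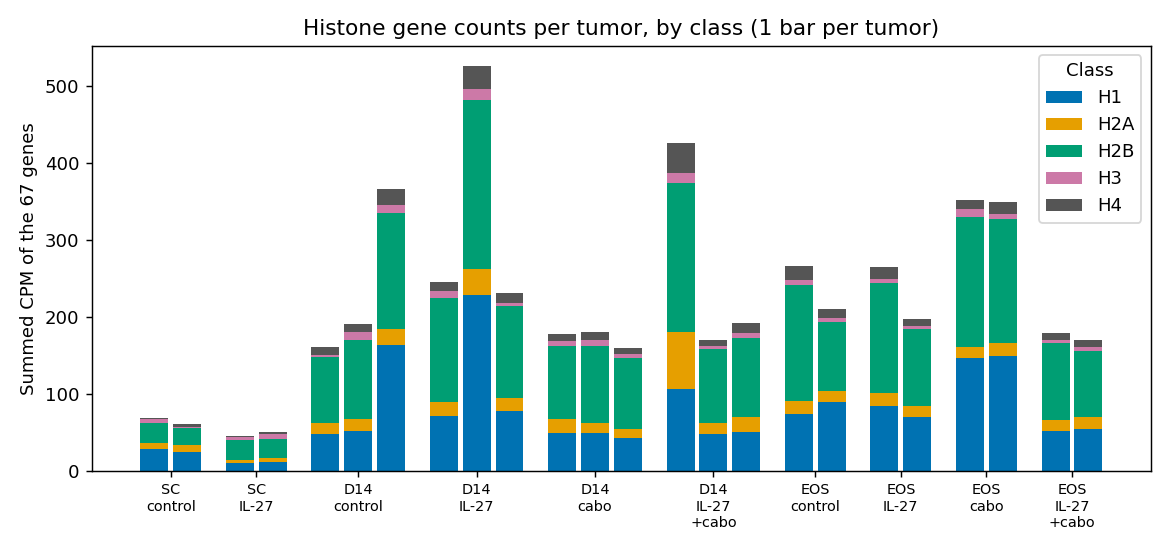
Summed CPM of the 67 genes (y axis, linear, from 0) in each tumor, with 1 bar per tumor, bars grouped by treatment group and colors by histone class. The SC bars end between 45.0 and 68.5, the highest intratibial bar (D14 IL-27, mouse 6) at 526, and the EOS cabo bars at 352 and 349.

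H1 is the linker histone, which sits where DNA enters and leaves the nucleosome. Hist1h1c (chr13:23738808-23740367, plus strand), which codes for H1.2, was the highest of the class, with a mean of 69.3 CPM or 44.4 CPM per kilobase. Its level was 44.5, 49.2 and 156 CPM in D14 control, 67.2, 213 and 73.3 in D14 IL-27, 45.7, 45.1 and 38.5 in D14 cabo, and 101, 45.3 and 46.4 in D14 IL-27+cabo. At EOS it was 68.5 and 85.8 CPM in control, 79.0 and 65.4 in IL-27, 134 and 140.5 in cabo, and 48.7 and 50.9 in IL-27+cabo. In every D14 group but cabo 1 tumor (mice 7, 6 and 20) lay far above the rest of its group, while the EOS cabo tumors lay close together and above all other EOS tumors.

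Hist1h1d (H1.3, mean 3.20 CPM) had 13.03 CPM in mouse 6 of D14 IL-27 and 5.34 in mouse 7 of D14 control, 7.78 and 6.43 in EOS cabo, and between 0.989 and 3.88 in the other intratibial tumors. Mice 6 and 7 and the EOS cabo tumors were thus high for both H1 genes, and mouse 20, at 3.31 CPM of Hist1h1d, was 1.48 times the median of the other intratibial tumors for this gene and 1.54 times for Hist1h1c. Its annotated transcript is 7425 bases long, so that its level per kilobase, 0.431 CPM, is about that of Hist1h1e (H1.4, 0.530 CPM per kilobase).

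H2A pairs with H2B at the nucleosome's outer faces. Hist3h2a (chr11:58954685-58956830, plus strand), a gene outside the large clusters, varied least of the described H2A genes among intratibial tumors, with a coefficient of variation of 32.9%, a lowest value of 7.79 and a highest of 23.3 CPM. Trim17, on the same strand, shares 33.0% of its exon bases. Hist2h2aa1 (chr3:96245497-96246082, plus strand) had 39.3 CPM in mouse 20 of D14 IL-27+cabo and between 0 and 3.83 CPM in every other intratibial tumor. Mouse 20 alone thus set the class: the H2A sum of D14 IL-27+cabo was 36.0 ± 33.0 CPM (SD, n = 3), against 14.6 ± 2.90 (SD, n = 3) in D14 cabo.

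H2B was the most abundant class over all tumors pooled, with H1 above it in mice 6 and 7 and in SC control. Hist1h2bc (chr13:23684199-23692908, plus strand) had the highest level of all members, 80.5 CPM or 69.6 CPM per kilobase. It was at 62.7, 78.5 and 118 CPM in D14 control, 104, 172 and 94.5 in D14 IL-27, 69.5, 72.6 and 67.7 in D14 cabo, and 156, 71.8 and 68.0 in D14 IL-27+cabo. At EOS it was at 119 and 69.7 CPM in control, 109.7 and 74.4 in IL-27, 134 and 127 in cabo, and 76.3 and 65.6 in IL-27+cabo. The D14 cabo tumors lay below all D14 IL-27 tumors and overlapped with the other D14 groups, and the EOS cabo tumors lay above all other EOS tumors.

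Hist2h2be (chr3:96221119-96223738, plus strand), unique in sequence, did not share this pattern. It ranged from 6.09 to 21.4 CPM among intratibial tumors (coefficient of variation 25.6%, the lowest of the 21 genes), with its highest value in mouse 24 of D14 IL-27+cabo and 11.3 CPM in mouse 6, near the median of 11.3. Hist1h2bg (chr13:23571396-23572013, plus strand) was at 14.0 and 22.03 CPM in mice 7 and 6, 19.8 in mouse 20, 13.8 and 14.4 in EOS cabo, and 6.49 to 14.1 elsewhere in bone. Hist1h2bg thus followed Hist1h2bc and Hist1h1c, and Hist2h2be did not. The other 4 described H2B genes had means of 0.751 (Hist1h2bh) to 1.85 CPM (Hist1h2be).

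H3 carries many of the histone marks that distinguish active from silent chromatin, and it was the least abundant class over all tumors pooled, though not in the SC groups, where its mean sum of 2.94 CPM in control and 5.64 in IL-27 was above that of H4 (2.69 and 1.51 CPM). Hist2h3c1 (chr3:96246685-96248509, plus strand) ranged from 0.0544 to 4.202 CPM among intratibial tumors, with 1.15, 3.35 and 2.73 CPM in D14 control, 2.52, 0.905 and 0.248 in D14 IL-27, 2.88, 4.202 and 3.29 in D14 cabo, and 3.98, 0.0802 and 0.238 in D14 IL-27+cabo. At EOS it was at 1.56 and 0.680 CPM in control, 0.459 and 0.0576 in IL-27, 2.91 and 1.97 in cabo, and 0.0544 and 0.489 in IL-27+cabo, so that it varied widely within most groups. Hist2h3c2 (chr3:96238108-96239127, minus strand) was at 4.23 CPM in mouse 6 and 3.61 in mouse 7, and at 0.244 to 2.89 in the other intratibial tumors. Both belong to the sequence-sharing genes above.

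H4 is the partner of H3 in the nucleosome's core. Hist1h4i (chr13:22040636-22041362, minus strand), its highest gene at 8.10 CPM or 11.1 CPM per kilobase, was at 24.6 CPM in mouse 20, 20.8 in mouse 6 and 13.9 in mouse 7, and at 5.56 to 11.6 in the other intratibial tumors. Hist1h4n (mean 0.977 CPM) was at 3.17 CPM in mouse 6, and Hist1h4h had 7.81 CPM in mouse 20 and at most 0.733 in any other intratibial tumor. The high values of Hist1h4i thus fell in the tumors that were high for Hist1h1c and Hist1h2bc, while mouse 20 had 1.09 CPM of Hist1h4n, near its median of 0.946.

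**Figure D3:**
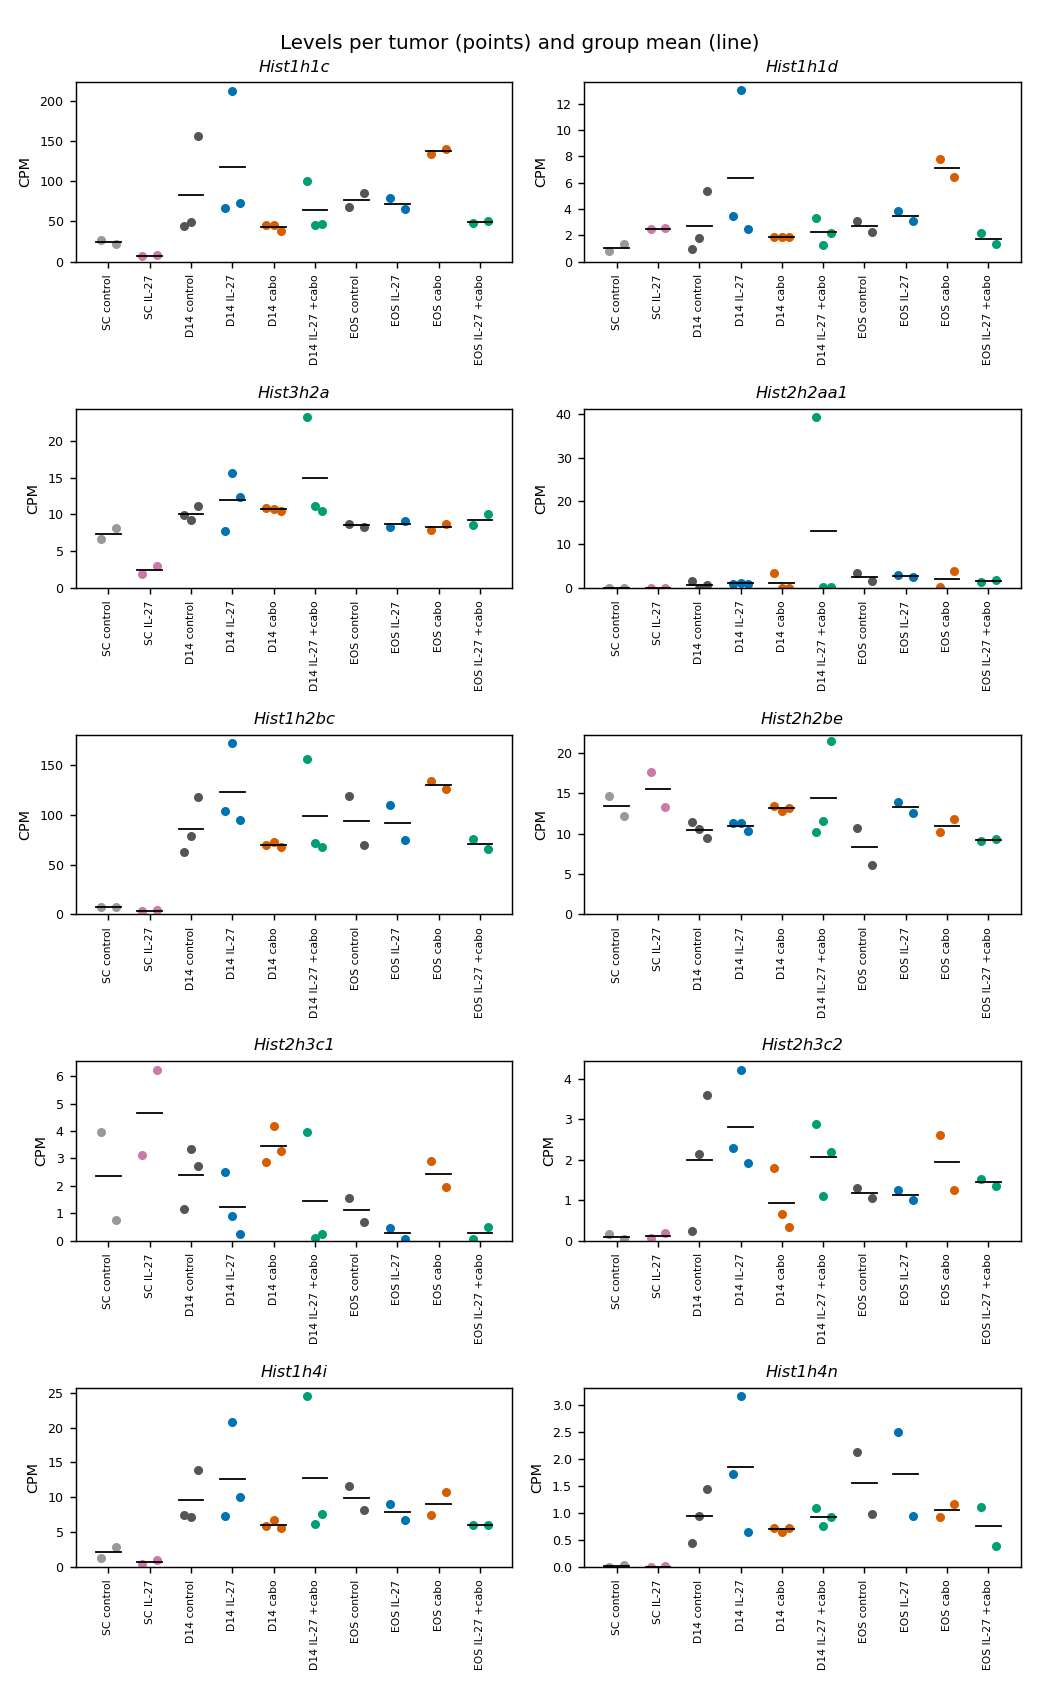
CPM (linear y axes from 0, each with its own scale) of the 2 described genes with the highest mean in each class, with 1 point per tumor and a black line at the group mean, for the 10 groups. Hist1h1c reaches 213 CPM in 1 D14 IL-27 tumor, Hist2h2aa1 39.3 CPM in 1 D14 IL-27+cabo tumor, and both EOS cabo points of Hist1h1c and Hist1h2bc lie above all other EOS points.

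Single tumors, rather than groups, held most of the high values. Mouse 6 (D14 IL-27) had the highest intratibial value of 10 of the 21 described genes and was among the top 3 tumors for 17. Mouse 20 (D14 IL-27+cabo) was highest for 6 genes, and in it Hist2h2aa1 was 33.1 times and Hist1h4h 18.7 times the median of the other intratibial tumors. Its library had the lowest total (63729005 counts), the lowest TMM factor (0.820) and the fewest genes detected (21269) of all libraries. Mouse 20 also stood apart in the sum of 14 nuclear RNAs that carry no poly(A) tail, 7.69 CPM there and at most 2.00 in the other intratibial tumors. Most of this sum came from the 7SK RNA Rn7sk at 5.05 CPM and from Rpph1 at 2.39 CPM. Others of the 14 did not share it: Snord17, Scarna6 and Scarna13 had no count in mouse 20 and some count in most other intratibial tumors. Variant histone mRNAs were high there too, with H2afj at 176 CPM against a median of 11.9. Their part in the histone values of mouse 20 was not tested. In mouse 6 the nuclear sum was 1.30 CPM, against a median of 1.12 over the intratibial tumors, and Hist2h2aa1 was at 1.19 CPM.

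The order of the tumors by histone sum was set beside their order by genes of the cell cycle and by erythroid markers. Of the 20 intratibial tumors, mouse 6 ranked 1 for the histone sum and 1 for the mean log2 level of 29 DNA replication genes, but mouse 20 ranked 2 and 13, mouse 7 ranked 3 and 5, and the EOS cabo tumors ranked 4 and 5 for the histone sum and 14 and 9 for replication genes. For 16 mitosis genes the ranks of these 5 tumors were 16, 20, 14, 8 and 6. Mouse 3 (D14 control) ranked 2 in both lists and 19 for the histone sum. By the sum of erythroid markers mice 6, 20 and 7 ranked 4, 3 and 2 and the EOS cabo tumors 9 and 7, while mouse 9 of EOS control, which ranked 1, was at rank 10 for the histone sum. The part of erythroid cells in the histone sums was not tested. These ranks are a description over tumors that share treatments.

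**Figure D4:**
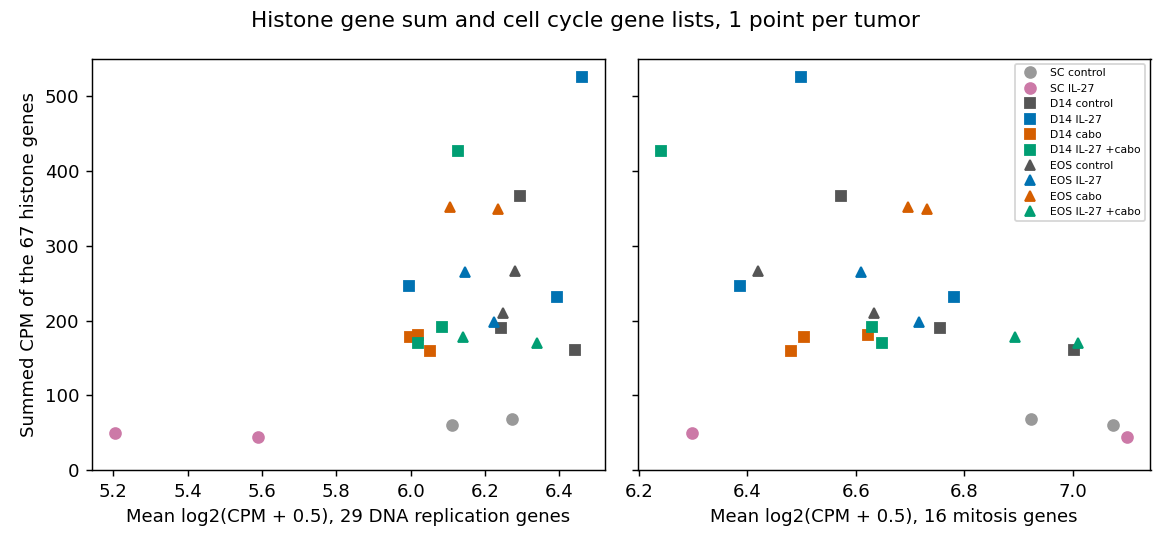
Summed CPM of the 67 histone genes (y axis, linear, from 0) against the mean log2(CPM + 0.5) of 29 DNA replication genes (left) and 16 mitosis genes (right), 1 point per tumor, with color for treatment and circles, squares and triangles for SC, D14 and EOS. The 2 tumors with the highest histone sums, at 526 and 426 CPM, rank 16 and 20 of the 20 intratibial tumors for the mitosis genes.

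The SC tumors differed from the intratibial tumors in site, cell line, cell number, time and the prefix of their library names, and these cannot be told apart, so no test was made. Hist1h2bc was at 7.20 and 7.45 CPM in SC control and 3.11 and 3.86 in SC IL-27, against 62.7 or more in every intratibial tumor, and its intratibial mean was 17.7 times the SC mean. Hist1h2bg differed by 17.4 times, Hist1h4i by 6.91 times and Hist1h1c by 5.004 times. All 4 SC tumors lay below all 20 intratibial tumors for 8 of the 21 described genes, which also included Hist1h2ae, Hist2h3c2, Hist1h3g and Hist1h4n, and above them for 0. Of all 15783 genes with a mean of at least 0.5 CPM, 4.23% lay below in this way and 2.52% above. That mean is over all tumors, 20 of them intratibial, so a gene high only in intratibial tumors passed it more easily. Hist1h2ae, Hist2h3c2, Hist1h3g and Hist1h4n had SC means of 0.00968, 0.108, 0.0724 and 0.0132 CPM and passed through the intratibial tumors. The counts below and above are thus partly set by the threshold. The ranges overlapped for the other 13 described genes, and for Hist2h2be the SC tumors, at 12.2 to 17.6 CPM, were as high as the intratibial ones. Fewer cells of a type and less RNA per cell cannot be told apart in bulk tumors.

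The comparison of EOS with day 14 asks how each arm changed after day 14, by when the cabo doses had ended. The paper proposes that IL-27 expression from the plasmid could have been sustained. EOS is thus not known to be free of treatment in the arms given IL-27 vector. In the cabo arm 4 of the 21 described genes were called higher at EOS and 0 lower (edgeR's quasi-likelihood F test, Benjamini-Hochberg adjusted p under 0.05 over all genes), where 2.09% of all 19144 genes tested were called, 0.945% higher and 1.14% lower. The linker histone gene Hist1h1c rose from 43.1 ± 3.99 CPM (SD, n = 3) to 137 ± 4.38 (SD, n = 2), a log2 fold change of 1.68 (SE 0.09, edgeR adjusted p 0.00181). Hist1h2bc rose from 69.9 ± 2.48 CPM (SD, n = 3) to 130.3 ± 5.29 (SD, n = 2), a log2 fold change of 0.90 (SE 0.07, edgeR adjusted p 0.00342). Hist1h1d rose from 1.91, 1.90 and 1.88 CPM to 7.78 and 6.43, a log2 fold change of 1.91 (SE 0.18, edgeR adjusted p 0.00798). Hist1h2bg rose from 6.49, 7.27 and 6.70 CPM to 13.8 and 14.4, with a log2 fold change of 1.05 (SE 0.12, edgeR adjusted p 0.0144). In each of these genes both EOS tumors lay above all 3 D14 tumors, which is no further support, since the genes were chosen as called in this comparison.

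The called genes were 2 H1 and 2 H2B genes, and no H2A, H3 or H4 gene passed with edgeR. Log2 fold changes were above 0 for 18 of the 21 genes, with a median of 0.60 against 0.01 over all genes tested (0.52 to 0.79 when a tumor was left out). The H2A gene Hist1h2ac, with a log2 fold change of 1.87 (SE 0.46), had an edgeR adjusted p of 0.109 and was called higher by DESeq2 (adjusted p 0.0126, with 3.82% of all genes called higher), and Hist2h2be had one of -0.25 (SE 0.12, edgeR adjusted p 0.344). Of the variant histone genes, which are not members, H1f0, the linker histone of cells at rest, was also called higher, by 0.92 on the log2 scale (SE 0.14, edgeR adjusted p 0.0319).

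The calls depended on which tumors gave the spread. With all 10 groups in 1 fit, which share 1 estimate of it, the fold changes were nearly the same but none of the 21 genes was called, and Hist1h1c had an edgeR adjusted p of 0.43. Without mouse 21 of D14 cabo 2 genes were called, and Hist1h1d had an edgeR adjusted p of 0.054. Erythroid and endothelial genes moved with this comparison: 3 of 7 erythroid markers tested were called higher, the sum over the 11 measured markers being 14.2 to 29.6 CPM in D14 cabo and 80.8 to 85.2 in EOS cabo, and 5 of 8 endothelial markers were, with sums of 138 to 153 CPM in D14 cabo and 275 to 327 in EOS cabo. Of 8 T lineage markers 3 were called lower, with sums of 21.8 to 31.8 CPM in D14 cabo and 7.18 to 8.53 in EOS cabo. Of 8 macrophage markers 1 was called lower, Mrc1 (log2 fold change -0.88, SE 0.09, edgeR adjusted p 0.00998). Single erythroid genes differed. The globin genes Hbb-bs and Hba-a2 were called higher by edgeR, with log2 fold changes of 2.26 (SE 0.27) and 1.96 (SE 0.29). The erythroid transcription factor gene Klf1 was near 0 in all intratibial tumors, with a highest value of 0.191 CPM. Skeletal muscle markers summed to 1243 to 1924 CPM in D14 cabo and to 122 and 964 in EOS cabo. Their part in the histone result was not tested.

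In the other arms no described gene was called between D14 and EOS with edgeR or DESeq2, and log2 fold changes were above 0 for 9 of the 21 genes in control (median -0.05), 3 in IL-27 (median -0.54) and 2 in IL-27+cabo (median -0.53). Single tumors moved these medians, to 0.35 in control without mouse 7, to -0.12 in IL-27 without mouse 6 and to -0.18 in IL-27+cabo without mouse 20. For control, where 0.104% of all genes were called, 0 of 21 genes had an unadjusted p under 0.05 (13.1% of all genes did), the smallest p being that of Hist2h3c1 (log2 fold change -1.11, SE 0.57, edgeR adjusted p 0.447). For IL-27, where 0% of all genes were called, 3 genes did (5.05% of all genes), led by Hist2h2aa1 with a log2 fold change of 1.38 (SE 0.35, edgeR adjusted p 0.818). For IL-27+cabo, also with 0% called, 0 genes did, and the change of Hist1h4h, -3.64 (SE 1.91, edgeR adjusted p 0.925), rests on 7.81 CPM in mouse 20 and was -0.55 without it. Hist1h1c was at 44.5 to 156 CPM in D14 control against 68.5 and 85.8 in EOS control, so that the groups overlapped.

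Whether the cabo arm changed differently from the others was tested in a fit of all 20 intratibial tumors, chosen after the data were seen. The EOS against D14 change of Hist1h1c was larger in the cabo arm than in control by 1.77 on the log2 scale (SE 0.74, unadjusted p 0.0298 in edgeR, adjusted p 1.00). Against IL-27 the difference was 2.36 (SE 0.75, edgeR adjusted p 1.00) and against IL-27+cabo 2.00 (SE 0.74, edgeR adjusted p 0.842). None of the 21 genes passed in any of these differences, with 1, 6 and 8 genes at an unadjusted p under 0.05 (4.11%, 3.18% and 3.83% of all genes), while 0.0788%, 0.0742% and 0% of all genes were called. A difference of the cabo arm from the others was thus not shown.

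**Figure D5:**
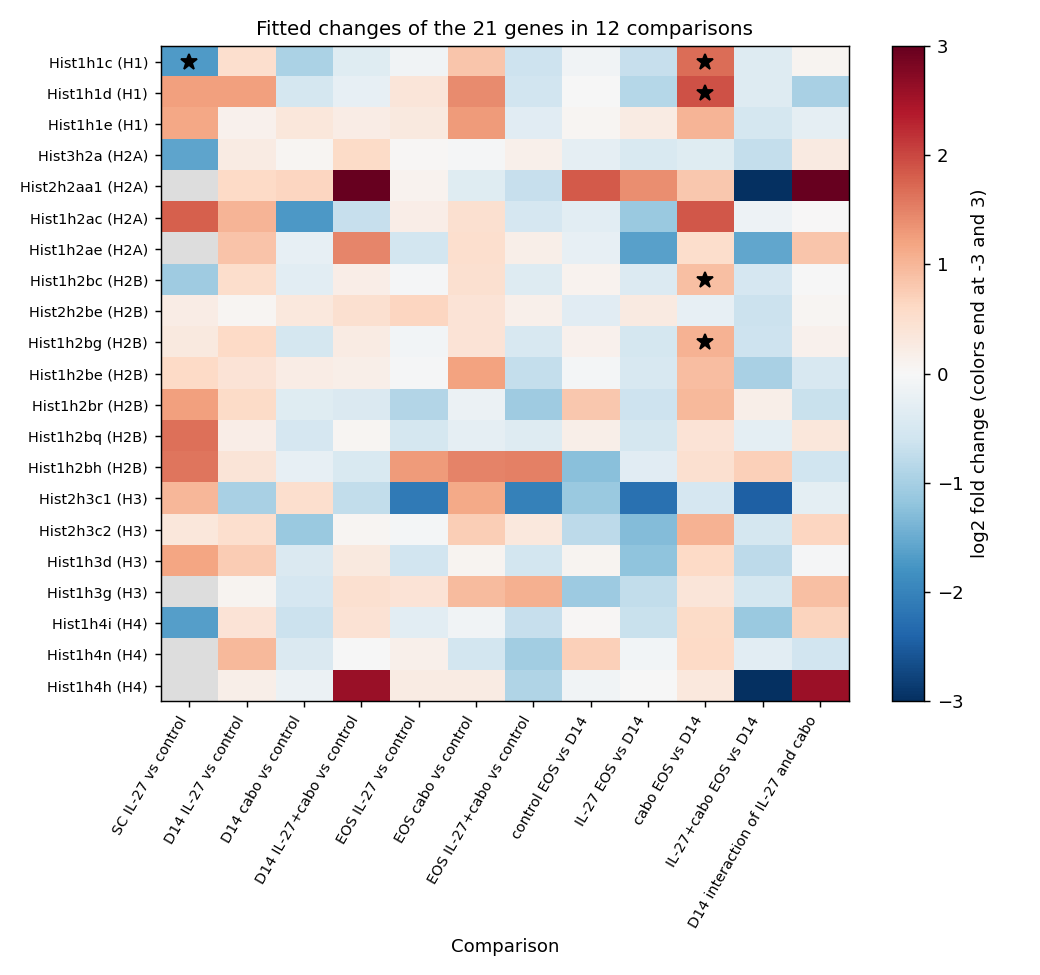
Fitted log2 fold changes (color, ending at -3 and 3) of the 21 described genes (rows, with class) in the 12 comparisons (columns), with a star at an edgeR adjusted p under 0.05 and grey where a gene was not tested. Stars stand at 4 genes in the comparison of EOS with D14 in the cabo arm and at Hist1h1c in the SC comparison, and the change of Hist1h4h from D14 to EOS in the IL-27+cabo arm, -3.64, involves mouse 20.

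Treatment on day 14 was compared with D14 control to ask what each agent did at the time of sampling. For IL-27 none of 21 genes was called, or had an unadjusted p under 0.05 (edgeR, 0% of all genes called; DESeq2 called 0 as well). Log2 fold changes were positive for 20 of 21 genes with a median of 0.50, against 0.02 over all genes, and the median was 0.05 without mouse 6. The smallest p belonged to Hist1h2ae, an H2A gene, with 1.36, 1.98 and 1.14 CPM against 0.921, 0.515 and 1.04 (log2 fold change 0.86, SE 0.42, edgeR adjusted p 1.00).

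For cabo 0 of 21 genes were called by edgeR, where 1.89% of all genes were (1.2% higher and 0.693% lower), and 3 had an unadjusted p under 0.05, as 18.9% of all genes did. Hist1h2ac, an H2A gene, was at 0.642, 0.661 and 0.433 CPM against 0.799, 1.57 and 3.32 in control, so that the groups did not overlap (log2 fold change -1.71, SE 0.52, edgeR adjusted p 0.145). DESeq2 called this gene lower, with an adjusted p of 0.0209, where it called 3.32% of all genes lower, and without mouse 7 of D14 control its edgeR log2 fold change was -1.05. Over the 21 genes 6 values were above 0 and the median was -0.36, or -0.01 without mouse 7. Among genes that process histone mRNA, Eri1, the exonuclease that trims the stem-loop end, was lower by edgeR (log2 fold change -0.50, SE 0.08, adjusted p 0.0272), as were the mitotic kinase genes Cdk1 (-0.53, SE 0.09, adjusted p 0.0338) and Aurka (-0.48, SE 0.09, adjusted p 0.0376). Skeletal muscle markers summed to 1243 to 1924 CPM in D14 cabo and 7.35 to 150.1 in D14 control, with 5 of 12 called higher. T lineage markers summed to 21.8 to 31.8 CPM in D14 cabo and 77.5 to 82.6 in D14 control, with 6 of 8 called lower, and endothelial markers to 138 to 153 and 183 to 295 CPM, with 3 of 8 called lower. Erythroid markers summed to 14.2 to 29.6 CPM in D14 cabo and 52.3 to 245 in D14 control. Of the 7 tested 0 were called, with a median log2 fold change of -2.40. The part of these cell types in the values of Hist1h2ac, Eri1, Cdk1 and Aurka was not tested.

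For IL-27+cabo 0 of 21 genes were called (edgeR, 0.064% of all genes called, 0.0213% higher and 0.0427% lower, 0 genes at an unadjusted p under 0.05; DESeq2 0 of 20). The smallest p was again that of Hist1h2ae, at 4.84, 0.655 and 1.29 CPM, with a log2 fold change of 1.47 (SE 0.78, edgeR adjusted p 0.807) that was 0.23 without mouse 20. Values were above 0 for 14 of the 21 genes, with a median of 0.21, or -0.31 without mouse 20. In the interaction of IL-27 and cabo on day 14, which asks whether the combination departs from the sum of both agents, 0 of 21 genes were called (0% of all genes, 0 at an unadjusted p under 0.05, DESeq2 0 of 20). Its smallest p was that of Hist1h4h, 2.56 on the log2 scale (SE 1.53, edgeR adjusted p 0.952), and without mouse 20 this value was -0.48, the opposite sign.

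At EOS the 4 groups shared 1 fit, in which edgeR called 0% of all genes in each comparison. For IL-27 1 of the 21 genes had an unadjusted p under 0.05, as 3.25% of all genes did, and DESeq2 called 0. That gene, Hist2h2be, was at 13.9 and 12.5 CPM against 10.7 and 6.09 (log2 fold change 0.66, SE 0.27, edgeR adjusted p 1.00). For cabo 4 genes had an unadjusted p under 0.05, as 8.9% of all genes did, and DESeq2 called 2 higher, with 0.75% of all genes. Hist1h1c, at 134 and 140.5 CPM against 68.5 and 85.8, had a log2 fold change of 0.84 (SE 0.15, edgeR adjusted p 0.404), with an adjusted p of 0.00192 by DESeq2. For IL-27+cabo 3 genes had an unadjusted p under 0.05, as 14.2% of all genes did, a like share. DESeq2 called 1 lower, with 1.85% of all genes, namely Hist1h1c at 48.7 and 50.9 CPM (log2 fold change -0.62, SE 0.15, edgeR adjusted p 0.191, DESeq2 adjusted p 0.0325). Over the 21 genes, values were above 0 for 10 in EOS IL-27 (median -0.04), 15 in EOS cabo (median 0.47) and 6 in EOS IL-27+cabo (median -0.51). When a tumor was left out these medians ran from -0.24 (without mouse 10) to 0.18 (mouse 12), from 0.15 (mouse 9) to 0.85 (mouse 13), and from -0.79 (mouse 9) to -0.18 (mouse 13). Hist1h1c was above control in both EOS cabo tumors and below it in both IL-27+cabo tumors, and whether these 2 changes count as different from 0 depended on the tool. Skeletal muscle markers summed to 122 and 964 CPM in EOS cabo and 114 and 231 in EOS IL-27+cabo against 7.02 and 13.2 in EOS control, endothelial markers to 275 and 327 and to 274 and 374 against 158 and 254, and T lineage markers to 7.18 and 8.53 and to 6.39 and 10.3 against 16.03 and 17.1 CPM. None of these markers was called by edgeR, and their part in the values of Hist1h1c was not tested.

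In the SC tumors IL-27 vector was compared with empty vector. Of the 16 described genes that passed the filter on low counts, edgeR called 1 lower and 0 higher, where 20% of all 19360 genes tested were called, 16.5% lower and 3.52% higher. Hist1h1c was at 6.83 and 8.02 CPM against 26.6 and 22.4 in control (log2 fold change -1.70, SE 0.36, edgeR adjusted p 0.0182). The core histone genes Hist3h2a, at 1.86 and 3.03 against 6.67 and 8.12 CPM (-1.59, SE 0.48, edgeR adjusted p 0.062), and Hist1h2bc (-1.06, SE 0.44, edgeR adjusted p 0.134) had negative values, while Hist1h2ac had 1.80 (SE 0.66, edgeR adjusted p 0.101). The median over the 16 genes was 0.80, against 0.04 over all genes, with 12 of 16 above 0, and it was 0.30 without SC control replicate 2 and 0.44 without SC IL-27 replicate 2.

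Under DESeq2, which called 19% of all genes lower, Hist3h2a was called lower as well (adjusted p 0.0138). The SC call for Hist1h1c was not kept after a correction for GC content and transcript length within libraries (log2 fold change -0.06, edgeR adjusted p 0.944), nor without either SC IL-27 tumor or SC control replicate 1 (edgeR adjusted p 0.0656 to 0.115). Beside it, 11 of 12 skeletal muscle markers and 5 of 6 marrow granulocyte markers tested were called higher in SC IL-27, the muscle sum being 393 and 975 CPM against 3.25 and 14.6. Of 8 T lineage markers 3 were called higher, of 8 macrophage markers 3 lower (C1qa by -3.86 on the log2 scale), and of 7 markers of the labelled tumor cells 3 lower, the same direction as Hist1h1c, among them Krt8 (-3.81) and Hras (-3.89). Their part in the result was not tested.

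Genes that make, trim and chaperone histones give the setting of these values. Of 21 genes of histone mRNA 3′ end processing and decay, 6 were called lower in SC IL-27 against control, where 16.5% of all genes were (among them Cpsf1 at -3.28 and Sympk at -3.07 on the log2 scale), 1 was lower in D14 cabo (Eri1), and none was called in the other 10 comparisons by edgeR. Slbp, which binds the stem-loop, was at 83.2 to 119 CPM in all intratibial tumors and at 83.2 to 141 in the SC tumors. Of 17 histone chaperones 4 were called lower in the SC comparison, among them Cabin1 and Daxx, and none elsewhere by edgeR, a share near that of all genes. Of 29 replication genes 9 were called lower in the SC comparison, where 16.5% of all genes were. In the cabo arm at EOS against D14, where 0.945% of all genes were called higher, 2 were, Cdt1 (0.52, SE 0.09, edgeR adjusted p 0.0433) and Tk1 (0.37, SE 0.07, edgeR adjusted p 0.0473). Of 11 variant and replication-independent histone genes, most of whose mRNAs are polyadenylated (H2afx is known to make both kinds of end), 2 were called lower in SC IL-27 (H2afx and H2afv), again near the share of all genes, and 1, H1f0, higher in the cabo arm at EOS.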

How the data were processed

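RNA from 24 tumors was sequenced as stranded, poly(A)-selected libraries. The authors deposited 1 table of raw read counts per gene, and per the labels HISAT2, StringTie and DESeq2 were among the tools used. The submitters' notes name the human build GRCh38 for these mouse samples, and the counting program and its annotation are not given in the sources used here. Between 30.4% and 35.5% of low values in a library were multiples of 4, so counts divided by 4 were tried as an alternative. Gene types, coordinates and transcripts came from GENCODE M21 (GRCm38), which held 55141 of the 55401 gene identifiers, and promoters from RefSeq (GRCm38.p6).

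Library totals were 63729005 to 83782258 counts. CPM used TMM factors. Each comparison was fitted over all genes with edgeR 4.0.16 in R 4.3.3 (filterByExpr, TMM, glmQLFit, glmQLFTest, two-sided, Benjamini-Hochberg adjustment, threshold 0.05). SE is the log2 fold change divided by the square root of F. Alternatives were DESeq2 1.42.0, RLE factors, no filter, a correction for GC content and length, all groups in 1 fit, and leaving out each tumor. The text names the 2 most abundant described genes of each class and, in each comparison, up to 3 called genes per direction by p or, where none was called, the described gene lowest in p, while Hist1h2bg in the cabo arm and other genes named were chosen after their values were seen. EOS treatment groups and the interaction each used 1 fit of 4 groups. The members and gene lists were chosen with earlier results of these data known. The edgeR code was tested on simulated data. Some marker genes of the lists are not reported here. Shares over all genes for DESeq2 and for the ranges of both sites were added after the data were seen.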

Additional observations from a re-analysis of the deposited data

Results flagged for a closer look

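For 16 values (the 5 class sums, the sum of all members and the 2 most abundant genes of each class), 10 pairs of contrasts were set side by side, between time points, sites or arms. In 3 of these 160 comparisons the groups did not overlap under either contrast, and the directions were opposite. The D14 and EOS tumors came from different mice. Groups this small can separate in this way by chance, and how often was not worked out. These differences were not tested. For Hist2h2be the mean was 11 CPM in EOS cabo and 13.1 in D14 cabo, but 13.2 in EOS IL-27 and 11 in D14 IL-27, a log2 ratio of the ratios of -0.5279. For the same gene, IL-27 against IL-27+cabo (9.21 CPM at EOS and 14.4 on day 14) gave 0.9165, and 0.51 without mouse 24 of D14 IL-27+cabo, which had 21.4 CPM. For Hist1h4i the mean was 9.09 CPM in EOS cabo and 6.08 in D14 cabo, but 6.02 in EOS IL-27+cabo and 12.8 in D14 IL-27+cabo, where mouse 20 had 24.6 CPM, and the log2 ratio of the ratios was 1.664, or 0.77 without mouse 20. Leaving out tumors in turn was chosen after the data were seen.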

How the results depend on the processing

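The 21 described genes were the same number with RLE factors and with plain library sizes. For the SC comparison, where 1 gene was called, DESeq2, counts divided by 4 and the replicate block each called 2 and all groups in 1 fit called 4, with 0 to 1 when a tumor was left out. Hist1h1c had a log2 fold change of -0.06 after GC and length correction, with or without the replicate block, and both then called Hist3h2a instead. The SC replicate numbers were not shown to pair the tumors (correlation of deviations 0.0313 across 19360 genes). For cabo at EOS against D14, all groups in 1 fit called 0 of the 4 genes, and leaving out a tumor left 2 to 4. DESeq2 called 1 gene lower in D14 cabo (3.32% of all genes), 2 higher in EOS cabo (0.75%) and 1 lower in EOS IL-27+cabo (1.85%), where edgeR called 0. For the interaction, Hist1h4h ranged from -0.48 (without mouse 20) to 3.10 when a tumor was left out. Of 162 alternatives for 14 named-gene results, 149 kept their direction and side of the threshold, 9 lost the call, 3 gained one and 1 turned its sign. Most of the 14 results were not called in the main fit, so for them keeping the side of the threshold says little. All lost calls came from results that were called there. For Hist1h1c in the SC comparison 6 of 8 alternatives other than leaving out a tumor kept the call. For Hist1h1c, Hist1h1d and Hist1h2bc in the cabo arm at EOS against D14, 5 of 6 did in each. The causes were not tested. With 2 or 3 tumors a group, and genes under 1 CPM resting on few reads, small changes could not be seen.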
